A study of Mus musculus with 4 samples.

Results

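Among 72251 accessible regions of B16-F10 cells, 1899 were called in both wild-type libraries, in neither Ssbp4 knockout library, and over 20 kb from every region that all 4 libraries shared. They are called far lost regions here. Calls on chromosomes 1 to 19, X and Y that shared 1 bp or more were merged into regions. A region called in both wild-type and neither knockout library was counted as lost (5122 regions, 7.09% of all regions). A region called in all 4 libraries was counted as retained (44000 regions). The members are thus 1899 of the 5122 lost regions. They were selected on the presence and absence of calls in the 4 lists and on the gap to retained regions, so these values are given as a description, with no test.

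The assay was ATAC-seq, in which the Tn5 transposase cuts open DNA and leaves sequencing adapters there. B16-F10 is a mouse melanoma cell line, and all 4 libraries came from it. Of these, 2 are labelled wild type and 2 knockout. Per the labels' protocols, Cas9 and a mixture of guide RNAs against Ssbp4, or a control guide against an intergenic site of chromosome 2, were electroporated into the cells. The labels do not say whether the knockout cells were a clone or a pool, nor whether the libraries of a genotype came from separate cultures, so the spread between them may be technical. Frozen cells were thawed before the nuclei were cut. Gene positions of this genome build were not used here, so neither the Ssbp4 locus nor melanocyte genes were checked in the lists, and regions are named by position on GRCm39 without annotation or sequence.

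Open regions that lie far from others are often enhancers, which act on gene promoters over distance through loops of the DNA. SSBP proteins bind the cofactor LDB1 and protect it from degradation. LDB1 joins into pairs and larger groups, is brought to DNA by LIM-domain proteins and the factors they bind, and can link distal enhancers to promoters. Insulator sites bound by CTCF are another common kind of open region away from genes. Peak lists alone do not tell these kinds apart.

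The wild-type lists held 59215 and 63080 calls and the knockout lists 50068 and 57698. The authors' deposited fold at the summits had medians of 5.87 and 6.20 for the wild-type and 4.58 and 4.73 for the knockout libraries. The shortest calls were 337 and 307 bp long in the wild-type lists, against 380 and 338 bp in the knockout lists. The genome-wide background of reads, recovered as described below, was 17.17 for knockout replicate 1 and 17.45 for knockout replicate 2. Wild-type replicates 1 and 2 had 14.68 and 15.14. Calls over that background had at least 31 and 32 reads at the summit for knockout replicates 1 and 2. For each wild-type replicate the lowest was 28. A lower fold and a higher background thus moved with the knockout label. Both knockout lists also had fewer calls and a longer shortest call than either wild-type list. In these measures, however, knockout replicate 2 stood close to wild-type replicate 1 (57698 against 59215 calls, 338 against 337 bp). The part of these differences in the results below was not tested. With 2 libraries against 2, no two-sided permutation p can go below 0.33, so no test across libraries was made. Wilson 95% intervals are given for shares and cover counting error only.

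The far lost regions were short, modest calls. Their median length, as merged regions, was 537 bp (range 338 to 1700 bp). Of these, 105 (5.53%) were shorter than any call of knockout replicate 1, against 189 of the 3223 lost regions within 20 kb of a retained one (5.86%). None was shorter than any call of knockout replicate 2. That was nearly fixed in advance, since the shortest calls were 337 bp in wild-type replicate 1 and 338 bp in knockout replicate 2. In wild-type replicate 1 their fold enrichment ran from 1.91 to 22.2 with a median of 3.89. Replicate 2 gave 1.86 to 26.4 with a median of 4.21, and the fold was higher there than in replicate 1 for 1349 of 1899 regions. Both wild-type libraries thus placed most of these regions at a few times the background.

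The number of reads piled up at each summit was recovered from the deposited fold and p-value. It had a median of 60 in wild-type replicate 1 (29 to 347) and 67 in replicate 2 (29 to 461), over a genome-wide background of 14.7 and 15.1. The local background under the call was no higher than that genome-wide level for 1869 of the 1899 regions in replicate 1 (98.4%) and 1861 in replicate 2 (98.0%). Among the 3223 lost regions within 20 kb of a retained one, the same held for 1886 (58.5%) and 1929 (59.9%). The far lost regions thus had a local background at that level more often than the near ones did in these libraries. The rule itself puts a retained region close to each near lost one, at a median of 6163 bp. How much of this difference the rule sets was not tested.

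The lowest fold at which a knockout call stood over the genome-wide background was 1.76 in replicate 1 and 1.79 in replicate 2. The fold in wild-type replicate 1 was more than 2 times the lowest fold of knockout replicate 1 in 1115 regions (58.7%) and of knockout replicate 2 in 1082 (57.0%). Retained regions also had lower folds in knockout replicates 1 and 2 (medians 5.12 and 6.01) than in wild-type replicates 1 and 2 (7.45 and 8.28). A wild-type fold is thus not on the same scale as the lowest knockout fold. A region without a call is not shown to be closed, since its reads in the knockout libraries were not used here.

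**Figure D1:**
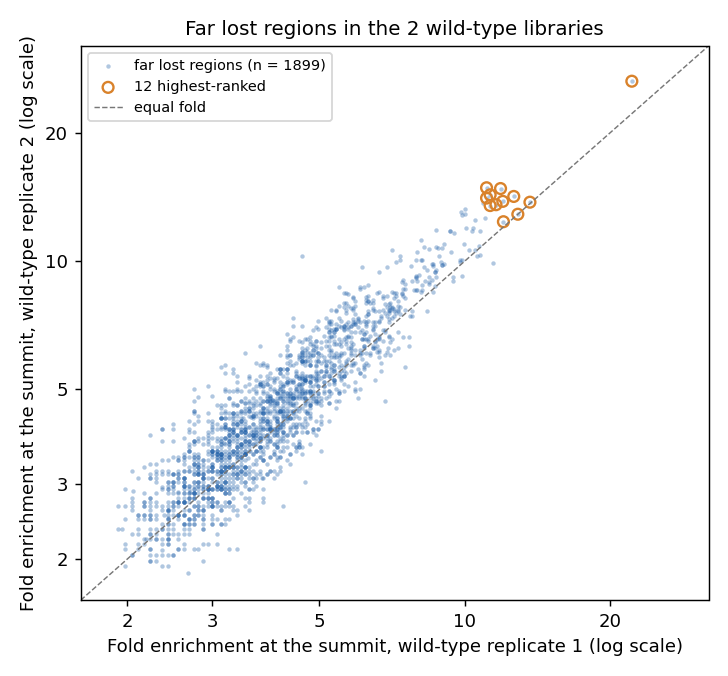
Each point is 1 of the 1899 far lost regions, with its fold enrichment at the summit in wild-type replicate 1 on the x axis and in replicate 2 on the y axis, both on log scales. The cloud follows the dashed line of equal fold and lies above it for 1349 regions, and the circled 12 highest-ranked regions have folds of at least 11.1 and 12.4.

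Both wild-type libraries placed the summit of a far lost region at nearly the same base. The summits lay a median of 22 bp apart, within 50 bp in 1383 regions (72.8%, interval 70.8–74.8), and at the identical base in 193. They were over 200 bp apart in 86 regions (4.53%). The calls of the 2 libraries shared a median of 82.3% of their joint length. Near lost regions had summits a median of 25 bp apart, within 50 bp in 67.2% (65.6–68.8) and over 200 bp apart in 8.66%. For comparison, 10296 retained regions lay over 20 kb from every other retained region (isolated retained regions below), and their summits were a median of 6 bp apart.

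Ranks were taken as the lower of the percentiles of a region's −log10 p in the 2 wild-type lists. The far lost regions had a median rank of 20.8, against 16.3 for near lost regions and 63.0 for isolated retained regions. Both lists put 1714 of the 1899 (90.3%) below their median. A further 109 (5.74%, interval 4.78–6.88) lay above the median of both lists, against 111 of the 3223 near lost regions (3.44%, 2.87–4.13). Leaving out a library loosens the rule for a lost region and gave 256 such regions without knockout replicate 2 and 202 without wild-type replicate 1, and lists of equal length gave 39. The fold exceeded 10 in both libraries in 26 far and 9 near lost regions.

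The strongest members were isolated by between 31.7 and 992 kb. The highest-ranked one, chr18:85716060-85716416, is 357 bp long, had 347 and 461 reads at the summit in wild-type replicates 1 and 2, and lay 745 kb from the nearest retained region. Both libraries put its summit at the same base, and it was the one member above the 75th percentile of both lists. The second, chr2:138972589-138973432, had 213 and 221 reads and was the sole region of any kind within 250 kb, so that no library called anything nearer.

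The next 10 had folds between 11.1 and 14.9 in the wild-type libraries and were called in neither knockout library. On chromosome 2, chr2:104101970-104102365 had folds of 12.6 and 14.2, with summits at the same base. The fold of chr2:42361139-42361868 was 12.9 in both libraries, and it lay 462 kb from a retained region. The third of this chromosome, chr2:65292432-65292845, had 11.1 and 14.9 and lay 46.8 kb away. Chromosome 2 thus held 4 of the 12.

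On chromosome 4, chr4:79837733-79838614 had folds of 11.99 and 13.8, and chr4:115437695-115438542 had 11.9 and 14.8. The latter was the closest of the 12 to a retained region, at 31.7 kb. On chromosome 10, chr10:113942641-113943093 had folds of 11.3 and 14.3 and was the most remote of the 12, at 992 kb. The other one there, chr10:100026667-100027328, had 11.3 and 13.5, and knockout replicate 1 had a separate call 2.76 kb away. That call is the nearest to any of the 12, so it lies outside the region but in its neighbourhood.

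The remaining 3 lay on chromosomes 15, 6 and 5. Folds were 12.03 and 12.4 for chr15:95117751-95118631, 11.6 and 13.6 for chr6:45250333-45250804, and 11.1 and 14.1 for chr5:19365151-19365839. The 12 regions came from 7 chromosomes. All 12 were still far lost with a stricter q, lists of equal length, other ways of matching calls and a wider meaning of retained. A stricter q or equal lists could hardly remove calls of such high rank. The 12 also stayed at 10 kb, which keeps every member by definition. They stayed with each library left out in turn, which loosens the rule for a lost region. A distance of 50 kb left 9 of the 12 because the other 3 lie nearer than that to a retained region. When isolation was measured from wild-type calls alone, as described further on, 11 of the 12 were isolated.

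Of the 10 highest-ranked members with both summits at the same base, 6 are among these 12. The other 4 were chr1:29975308-29976105 (folds 11.03 and 12.6 in wild-type replicates 1 and 2), chr3:110401597-110402265 (10.1 and 11.96), chr7:73823903-73824423 (10.01 and 12.9) and chr3:147532818-147533634 (9.89 and 10.04). They lay 842, 243, 179.6 and 410 kb from a retained region. The distance of the first rests on 1 library, since it was 105 kb without wild-type replicate 2.

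Isolation varied widely among the members. The gap to the nearest retained region had a median of 51.9 kb, was over 100 kb for 548 regions (28.9%), over 500 kb for 90 (4.74%) and over 1 Mb for 15. The most remote member, chr3:46401935-46402643, lay 2587 kb from a retained region, or 1071 kb without knockout replicate 1, and was weak, with folds of 2.42 and 3.22. Its summits in the 2 wild-type libraries were 291 bp apart. The members next to the threshold were chr3:65225296-65225935 at 20.049 kb (folds 4.15 and 5.58) and chr8:112688063-112688450 at 20.069 kb (4.91 and 5.70). Just outside it lay chr10:75808259-75808852 at 19.997 kb (4.27 and 5.204) and chr12:69158283-69158645 at 19.996 kb (5.49 and 6.75), so the threshold parts regions of like strength.

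Median fold and length changed little with distance among the members, and the share of strong ones was lowest nearest the threshold. Between 20 and 50 kb from a retained region, 927 members had median folds of 3.83 and 4.09 in wild-type replicates 1 and 2 and a median length of 542 bp. Beyond 500 kb, the 90 members had medians of 4.08, 4.65 and 536.5 bp. Regions above the median of both lists made up 4.10% of the members at 20–50 kb (interval 3.001–5.58), 7.55% at 50–100 kb, 6.38% at 100–200 kb, 7.39% at 200–500 kb and 8.89% farther out. Each of these farther bins had an interval that overlaps the one at 20–50 kb (5.40–10.5, 4.08–9.86, 4.37–12.2 and 4.57–16.6, in order of distance). With the farther bins pooled, 71 of 972 members (7.30%, interval 5.83–9.11) were above the median of both lists. These intervals take regions and not libraries as units, so whether the shares differ was not tested. A member had a median of 13 retained regions within 500 kb on either side, against 35 for a near lost region and 20 for an isolated retained one. The count of an isolated retained region includes itself, and the rule gives each near lost region a retained one within 20 kb.

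Far stretches of the genome, over 20 kb from retained regions on both sides, made up 1718 Mb or 66.2% of the length between retained regions. They held 1.11 lost regions per Mb, and the remaining stretches held 3.67, which is 3.32 times as many. For gained regions (both knockout and neither wild-type library) the near stretches held 3.76 times as many per Mb. The ratio was 4.84 for regions called in both wild-type and 1 knockout library, 4.29 for those of 1 wild-type library alone, and 5.11 for those of 1 knockout library alone. Of the 5 patterns compared, lost regions thus had the lowest ratio of near to far density. The stretches are the same for every pattern, so this ratio largely restates the shares of far regions given next.

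Counted by region, 37.1% of lost regions were far (interval 35.8–38.4), against 28.8% (27.7–29.99) of those called in both wild-type and 1 knockout library. Regions called in 1 wild-type library alone were far in 31.3% (30.3–32.5). Gained regions were far in 34.5% (31.7–37.4), and the intervals of lost and gained regions overlap. The 8657 far regions hold no retained region by definition, and 21.9% of them were lost and 4.37% gained (378 regions). Among all 28251 regions that were not retained, near or far, 18.1% were lost and 3.88% gained. Lost regions made up 83.4% of far lost and gained regions together, 81.8% of the near ones and 82.4% of all. Without knockout replicate 1 they made up 63.8% of the far ones. The count of far lost regions itself was 3413 without wild-type replicate 1 and 3268 without knockout replicate 2.

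A region that both wild-type libraries called was missing from both knockout lists more often where it was isolated. Isolation was measured for all 55088 such regions as the gap to the nearest other retained region, which for lost regions is the gap used above. Of the 13915 isolated ones (over 20 kb), 13.6% were lost, and of the 41173 others 7.83% were, beside 9.3% over both. Up to 20 kb the share showed no steady course and lay between 6.92% (5–10 kb) and 9.83% (1–2 kb). Beyond it the share was 10.8% at 20–50 kb, 14.8% at 50–100 kb, 20.2% at 100–200 kb, 24.6% at 200–500 kb and 28.8% (24.0–34.0) of the 313 regions farther out. The median rank fell over these bins too, from 54.1 at 20–50 kb to 40.4 beyond 500 kb.

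**Figure D2:**
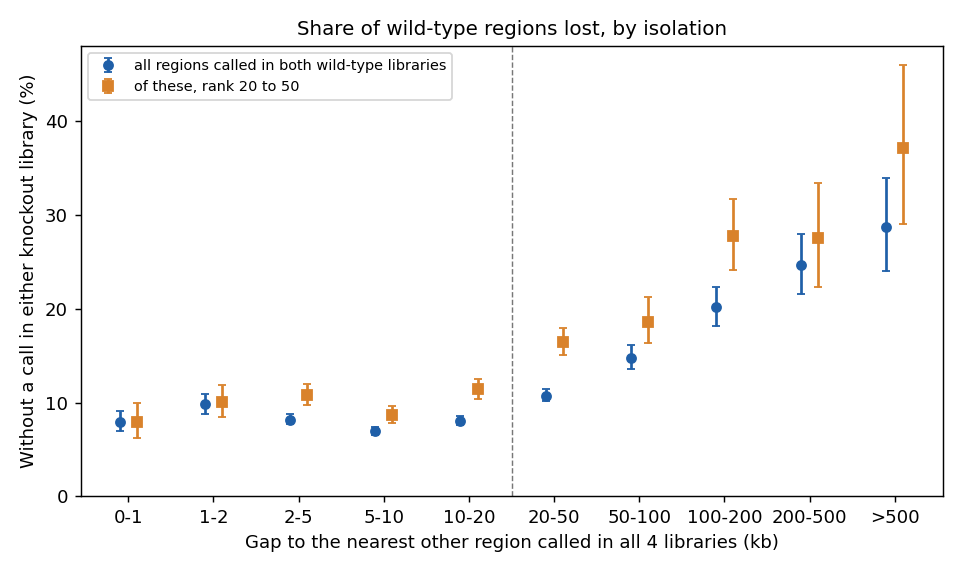
The y axis gives the percent of regions called in both wild-type libraries that had no call in either knockout library, and the x axis their gap in kb to the nearest other region called in all 4. Circles are all such regions, squares those of rank 20 to 50, bars are Wilson 95% intervals, and the dashed line marks 20 kb. To its right the circles climb in each bin. The squares go from 16.5% to 37.2%, with no rise between 100–200 kb (27.8%) and 200–500 kb (27.5%).

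Regions of like rank differed in the same direction. At ranks of 20 to 30, 25.7% of isolated regions were lost (373 of 1450, interval 23.5–28.0) and 15.3% of the others (14.2–16.5). At 40 to 50 it was 12.8% (11.2–14.6) against 5.29% (4.65–6.01), and at 60 to 70 it was 2.21% (1.57–3.11) against 0.323% (0.193–0.542). The intervals, which cover counting error of regions only, did not overlap in any of the 7 bins up to rank 70. Above rank 70 nearly all regions were called in the knockout, with 1 of 4197 isolated regions lost and 10 of 13273 others.

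**Figure D3:**
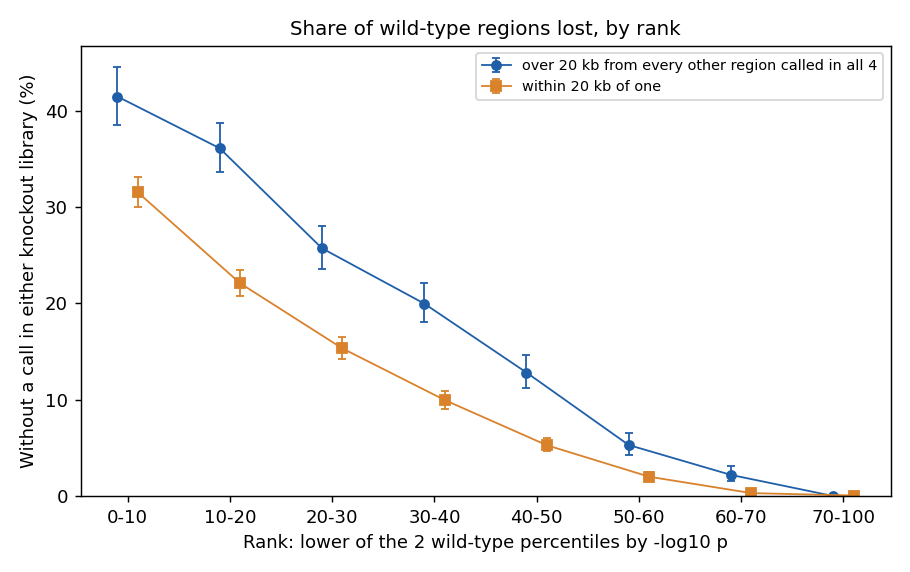
The x axis is the rank of a region, the lower of its percentiles in the wild-type lists, and the y axis the percent with no call in either knockout library, with Wilson 95% intervals as bars. Isolated regions (circles) lie above the others (squares) in each bin up to rank 70, from 41.5% against 31.5% in the lowest bin, and both are near 0 above it.

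Isolated regions were also lost more often when compared at like local background or fold, and in most classes of rank and length. The recovered background did not fall below the genome-wide level, so emptier surroundings would not show in it. Whether background, fold, rank or length accounts for the difference was not tested. Among regions whose local background was at the genome-wide level in both wild-type libraries, 25.3% of 7337 isolated regions were lost (24.3–26.3). Of the 9691 others, 18.9% were lost (18.1–19.7). Within this set the isolated share was the higher in each rank bin up to 70. The intervals overlapped at ranks of 50 to 60, with 8.62% (6.90–10.7) of isolated regions lost against 5.21% (3.82–7.07) of the others. Where the lower of the 2 wild-type folds was 3 to 4, 33.6% of isolated regions were lost (31.4–35.9) and 15.7% of the others (14.8–16.7). In 12 classes by rank and length together, the isolated share was the higher in 11, with intervals of counting error apart in 8. At ranks of 25 to 50, isolated regions of at most 500 bp were lost in 68.6% (63.8–73.1) and those of 500 to 750 bp in 27.3% (24.8–29.9), against 52.5% (48.6–56.4) and 16.9% (15.5–18.3) of the others. The exception was regions over 1000 bp with a rank up to 25, of which 5.36% of isolated and 6.74% of other regions were lost, with overlapping intervals (3.76–7.59 and 5.81–7.80).

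Because retained regions are defined with the knockout lists, isolation was also measured from regions called in both wild-type libraries alone, a choice made after seeing the data. Of the 1899 members, 1552 (81.7%) were isolated by that measure too. It gave 14.2% of 10902 isolated regions lost (13.6–14.9) and 8.08% of 44186 others (7.83–8.34). The other members had a region of both wild-type libraries, but of fewer than both knockout libraries, within 20 kb.

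How often a call fails to recur was compared library by library. Of 3978 isolated calls of wild-type replicate 1 between the 25th and 50th percentile of its list, 2.36% had no call in wild-type replicate 2. The share was 36.2% for knockout replicate 1 and 23.8% for knockout replicate 2. For 4324 such calls of wild-type replicate 2 the shares were 11.4% in wild-type replicate 1, 44.1% in knockout replicate 1 and 29.9% in knockout replicate 2. Calls that were not isolated gave 1.72%, 22.8% and 12.7% for replicate 1, and 8.17%, 30.1% and 18.0% for replicate 2. Both knockout libraries thus lacked more of these calls than the other wild-type library did, and in each pair the isolated calls were missing more often.

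In the reverse direction, 3058 isolated calls of knockout replicate 1 between these percentiles had no call in 2.68% and 2.52% of cases in wild-type replicates 1 and 2, and in 2.88% in knockout replicate 2. For knockout replicate 2 (3592 calls) the shares were 5.93% and 3.95% in wild type and 22.0% in knockout replicate 1, the shortest list. The failure of calls to recur in knockout replicate 1 was therefore seen against its own replicate as well.

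**Figure D4:**
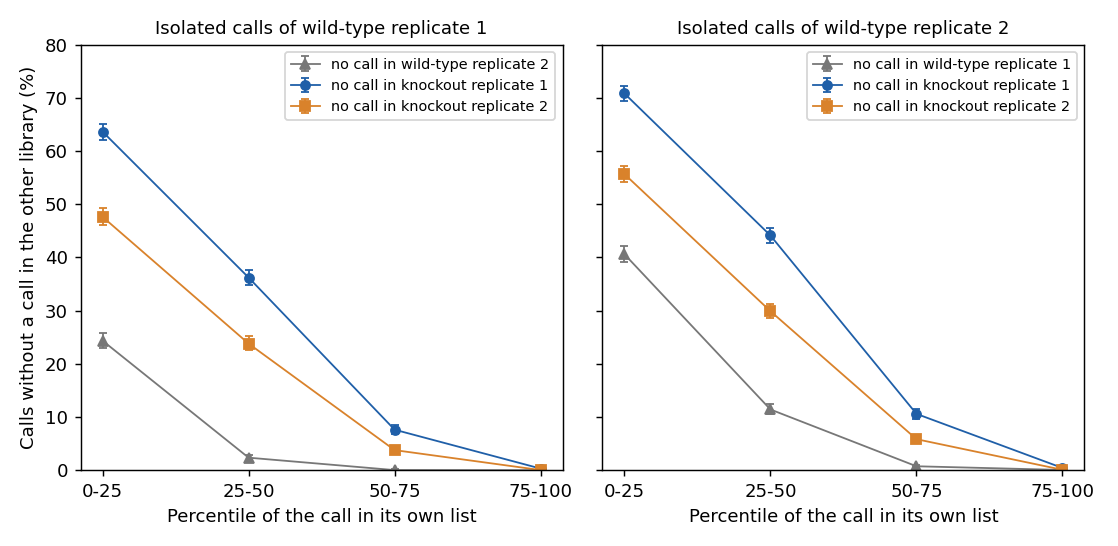
The percent of isolated calls of wild-type replicate 1 (left) and 2 (right) with no call in another library is plotted against the percentile of the call in its own list, with Wilson 95% intervals. The other wild-type library (triangles) lies lowest in each bin, knockout replicate 1 (circles) highest and knockout replicate 2 (squares) between, and all are near 0 above the 75th percentile.

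For 1276 members (67.2%, interval 65.0–69.3) no other region of any pattern lay within 20 kb, a range from which the rule already removes retained regions. The same held for 58.8% of far regions called in both wild-type and 1 knockout library, 60.1% (55.0–64.9) of far gained and 57.7% of isolated retained regions. Within 100 kb, no other region lay near 250 members (13.2%, interval 11.7–14.8), against 8.84%, 19.6% (15.9–23.9) and 5.79% of these 3 sets. Far gained regions thus stood alone at 100 kb more often than the members did. A knockout call lay within 1000 bp, without touching, for 8 members, and within 20 kb for 332 (17.5%). The nearest other region was a retained one for 661 members (34.8%), a region of 1 wild-type library alone for 357 (18.8%), another lost region for 318 (16.7%) and a gained one for 40 (2.11%).

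When members up to 100 kb apart were joined into runs, 1455 formed no run, 172 runs held 2, 28 held 3 and 4 held 4. The 3 named runs are the first of the 4 largest by start position. On chromosome 3, the run from 8811851 to 8960270 spans 148 kb. Its members had folds between 3.13 and 5.55 in wild-type replicate 1 and between 2.91 and 6.44 in replicate 2, and the first of them, chr3:8811851-8812339, had both summits at the same base.

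The run on chromosome 19, from 58246159 to 58395199, spans 149 kb and was weaker. Replicate 1 gave folds of 2.998, 3.13, 2.62 and 4.85 along it and replicate 2 gave 2.42, 4.27, 2.17 and 3.96, so 3 of the 4 members were lower in replicate 2. On chromosome 15, the run from 61223651 to 61395333 spans 172 kb, with folds of 2.23, 4.401, 2.23 and 5.68 in replicate 1 and 3.90, 4.77, 2.54 and 5.70 in replicate 2. Both runs thus mix members near the lower end of the lists with moderate ones. On chromosome 19, −log10 q in replicate 2 was 4.87 for the member starting at 58246159 and 3.31 for the one at 58326976. On chromosome 15, −log10 q in replicate 1 was 3.57 for the members starting at 61223651 and 61375410. With −log10 q of at least 5 these members drop out, so neither run stays whole.

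The members were spread over 20 chromosomes, with 169 on chromosome 2, 168 on chromosome 1 and 150 on chromosome 3, and 0 on Y. As a share of a chromosome's lost regions, they ranged from 25.4% (20.6–30.9) on chromosome 11, which carries 8.07% of all retained regions, to 61.2% (51.5–70.01) on X, which carries 1.55%. Among isolated regions called in both wild-type libraries, the share lost was highest on chromosome 19, at 19.9% (79 of 396, interval 16.3–24.2). Apart from Y, with 0 of 5 lost, it was lowest on chromosome 6, at 8.93% (71 of 795, interval 7.14–11.1). Chromosome 6 held 57 of the 378 far gained regions. Chromosome 1 held 55 of them, and 15.9% (13.9–18.3) of its isolated regions were lost. On X, 13.6% of 462 were lost, as over all chromosomes. The 109 members above the median of both lists lay on all 20 chromosomes, with at most 11, on chromosome 1.

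**Figure D5:**
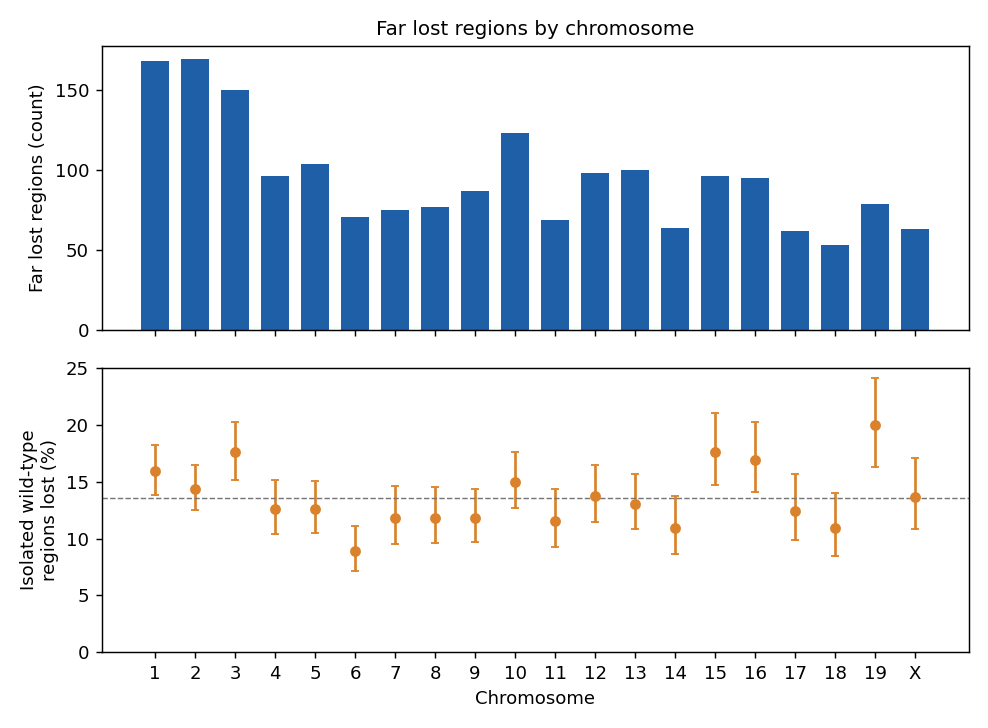
The upper panel gives the number of far lost regions on each chromosome, and the lower panel the percent of isolated regions called in both wild-type libraries that were lost, with Wilson 95% intervals and the value over all chromosomes (13.6%) as a dashed line. Chromosome 19 stands highest in the lower panel at 19.9% and chromosome 6 lowest at 8.93% (Y, with 0 of 5 lost, is not drawn).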

How the data were processed

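Peaks were called with MACS2 in each library, on GRCm39, per the submitters' processing notes. The sources used here give no aligner, version, duplicate filter or Tn5 shift. The authors deposited, for each call, a display score (not used), the fold enrichment at the summit, which is the ratio of pileup to local background, and −log10 p and q-values. The lowest −log10 q was about 1.3 in each deposited list. Positions were converted to 1-based coordinates. Members, thresholds and lists were chosen with earlier results of these data known. No test was made. Pileup and background were recovered by solving fold = (pileup + 1) / (background + 1) together with the Poisson tail, and the pileup came within 0.05 of a whole number for over 99.9% of calls in each list. Read totals were not used, so depth is not known, and this background is not a measure of depth by itself. Named regions are the 12 of highest rank, those next to the 20 kb threshold, the most remote one, 3 of the 4 largest runs, and the 10 highest-ranked with identical summits. Gene tables and promoter sequences at hand belong to GRCm38.p6, so genes, motifs and sequences were not analysed here. Scripts were tested on simulated data (Python 3.11.15, numpy 2.4.6, pandas 2.3.3, scipy 1.17.1).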

Additional observations from a re-analysis of the deposited data

How the results depend on the processing

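Within each alternative, isolated wild-type regions were lost more often than the others. The shares were 14.4% against 8.51% with −log10 q of at least 5, 9.40% against 4.75% with lists of equal length, 14.9% against 8.94% where a call had to cover 50% of a region, and 13.8% against 8.52% in windows of fixed width around summits. They were 11.1% against 7.74% at 10 kb, 18.4% against 8.33% at 50 kb, 14.2% against 7.89% where retained meant both wild-type and at least 1 knockout library, and 14.2% against 8.08% with isolation from wild-type calls. Leaving out 1 library gave 16.1% to 24.0% against 9.66% to 16.4%. The number of far lost regions was 1212 with equal lists and 972 at 50 kb, and 2011 to 3413 with 1 library left out; those above the median of both lists numbered 39, 71 and 119 to 256. The far share of lost regions was 43.0% with equal lists, 38.8% with 50% cover, 55.3% at 10 kb, 18.98% at 50 kb, 33.9% with the wider meaning of retained and 32.4% to 34.4% with 1 library left out. Lost regions made up 89.4% of far lost and gained regions with the stricter q, 64.0% with equal lists, 81.6% with 50% cover, 81.4% at 50 kb, and 63.8% to 86.4% with 1 library left out. Equal lists shorten the wild-type lists, and leaving out a library loosens the rule, so those counts move by construction. Of the 1899 members, 1734 were still far lost with the stricter q and 1076 with equal lists. No paired analysis was possible because the results are counts of regions that come from no test, and the replicate numbers pair no material in the labels.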
